A study of Homo sapiens with 18 samples.

Results

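The human metallothionein cluster on chromosome 16 was examined for acetylation of lysine 27 of histone H3 (H3K27ac) and for binding of CTCF. Its members were the 10 genes MT4, MT3, MT2A, MT1E, MT1M, MT1A, MT1F, MT1G, MT1H and MT1X, out of 19111 protein-coding genes on chromosomes 1 to 22. A peak was assigned to a member when it shared at least 1 bp with the gene body plus 5 kb on either side, with gene bodies taken from GENCODE release 44 on hg38. By this rule, 37 of the 506359 peaks in the 12 lists fell at the cluster. Windows of neighbouring members overlapped and merged into 6 stretches of 96.6 kb in all, so some members shared a peak.

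The cells were HEK293T, a transformed line derived from human embryonic kidney. They were left untreated (CTRL) or were exposed for 1 day to valproic acid (VPA) at 1 mM, a drug that blocks histone deacetylases. The 4 groups, H3K27ac CTRL, H3K27ac VPA, CTCF CTRL and CTCF VPA, held 3 ChIP-seq libraries each. The labels do not say that the replicates came from separate cultures, so the p-values measure only the spread between these libraries, which may be technical. All results concern a single cell line and a single dose and time.

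Metallothioneins are small cysteine-rich proteins that bind zinc and copper and that sequester cadmium. MT2A and most MT1 genes are expressed widely and are induced by metals through MTF1, a zinc finger factor that binds short metal response elements in their promoters. MT3 is known from brain, and MT4 from stratified squamous epithelium. H3K27ac marks active promoters and enhancers. CTCF is a zinc finger protein that binds an asymmetric motif and anchors chromatin loops.

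The cluster spanned 119.1 kb. In order along the chromosome, the gene bodies were MT4 at chr16:56565073-56568957, MT3 at chr16:56589074-56591088, MT2A at chr16:56608584-56609497, MT1E at chr16:56625475-56627112, MT1M at chr16:56632659-56633981, MT1A at chr16:56638666-56640087, MT1F at chr16:56657731-56660698, MT1G at chr16:56666730-56668065, MT1H at chr16:56669814-56671129 and MT1X at chr16:56682470-56684196. MT1G alone lies on the minus strand. MT4 lies within the annotated span of BBS2, a gene of the ciliary BBSome complex on the minus strand, and NUP93, a nuclear pore gene, begins 45.9 kb beyond the end of MT1X.

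Promoter sequences are shown because the acetylated and the non-acetylated members can be set side by side in them. They run from 250 bases before to 50 bases after the start site on the plus strand of GRCh38.p14 and come from RefSeq, which matched 4 of the 10 members. MT1A, MT1E, MT1F, MT1G, MT1M and MT3 were not matched. Capitals mark the metal response element core, searched as TGCACNC and TGCGCNC on both strands. MT2A lies at chr16:56608334-56608633, MT1X at chr16:56682220-56682519, MT1H at chr16:56669564-56669863 and MT4 at chr16:56564823-56565122.
MT2A: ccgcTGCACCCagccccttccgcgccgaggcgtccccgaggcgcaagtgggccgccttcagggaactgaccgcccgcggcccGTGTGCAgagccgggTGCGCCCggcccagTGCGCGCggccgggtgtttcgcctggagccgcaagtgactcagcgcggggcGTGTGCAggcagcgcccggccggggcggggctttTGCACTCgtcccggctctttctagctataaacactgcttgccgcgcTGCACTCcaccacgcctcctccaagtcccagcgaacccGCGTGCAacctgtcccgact
MT1X: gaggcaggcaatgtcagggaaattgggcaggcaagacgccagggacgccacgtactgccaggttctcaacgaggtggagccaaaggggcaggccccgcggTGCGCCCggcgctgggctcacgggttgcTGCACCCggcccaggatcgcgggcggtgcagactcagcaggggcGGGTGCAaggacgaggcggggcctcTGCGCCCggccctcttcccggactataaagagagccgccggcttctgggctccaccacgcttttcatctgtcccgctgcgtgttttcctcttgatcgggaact
MT1H: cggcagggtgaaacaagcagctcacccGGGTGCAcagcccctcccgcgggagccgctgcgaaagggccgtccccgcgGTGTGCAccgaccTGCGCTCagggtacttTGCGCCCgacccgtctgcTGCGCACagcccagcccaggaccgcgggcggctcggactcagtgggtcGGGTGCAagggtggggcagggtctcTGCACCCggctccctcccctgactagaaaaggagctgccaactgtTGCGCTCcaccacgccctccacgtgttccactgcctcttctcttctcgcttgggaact
MT4: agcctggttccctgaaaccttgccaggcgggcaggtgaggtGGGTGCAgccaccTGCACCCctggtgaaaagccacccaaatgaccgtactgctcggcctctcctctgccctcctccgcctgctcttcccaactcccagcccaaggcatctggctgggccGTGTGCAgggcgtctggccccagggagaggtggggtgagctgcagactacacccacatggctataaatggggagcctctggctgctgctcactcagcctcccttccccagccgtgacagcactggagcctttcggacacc

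The MT2A promoter held 8 cores, at −246, −168, −153, −139, −88, −54, −8 and +30 bp of the start site. MT1H also held 8, between −223 and −8 bp. MT1X held 4, at −150, −122, −78 and −53 bp, and MT4 held 3, at −209, −196 and −90 bp. Of all 35116 promoters in the table, 29.6% held at least 1 core, 2.3% at least 3, 0.601% at least 4 and 0.074% at least 6. The letters TATAAA stood at −29 bp in MT2A and MT4 and at −30 bp in MT1X and were not found in the MT1H window, where 7.33% of all promoters held them. The share of G and C was 72% in MT2A, 67% in MT1X, 68.3% in MT1H and 64.3% in MT4, against a median of 58.7% over all promoters. The observed over expected ratio of CpG was 0.962 in MT2A, 0.776 in MT1X, 0.72 in MT1H and 0.261 in MT4, against a median of 0.579. Such matches describe the letters only.

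Libraries differed in ways that touch the cluster. H3K27ac lists held 26299 to 29799 peaks in CTRL and 38441 to 40992 in VPA, and CTCF lists 39818 to 58782 in CTRL and 36469 to 55325 in VPA. Read totals are not part of peak lists. A relative depth was derived from the lowest local background, which lay between 3.51 and 3.95 fragments in all 12 libraries. The replicate 1 libraries of each group stood apart. The local background of peaks within 1 kb of a protein-coding start site had a median of 49.3 and 43.3 fragments in H3K27ac CTRL and VPA replicate 1, against 10.9 to 11.9 in the other 4 H3K27ac libraries. In CTCF replicate 1 it was 43.8 and 42.2, against 9.97 to 11.3. The part of this difference in the results below was not tested, and the main results on the cluster are given with and without replicate 1. As a check of the cell type, the start sites of VIM, NEFM and GAPDH had an H3K27ac peak in 6 of 6 libraries and ACTB in 5. ALB and PTPRC, markers of liver and blood, had none. PAX2, a renal marker, had none either, and the muscle gene MYOD1 had a peak in 2 VPA libraries.

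**Figure D1:**
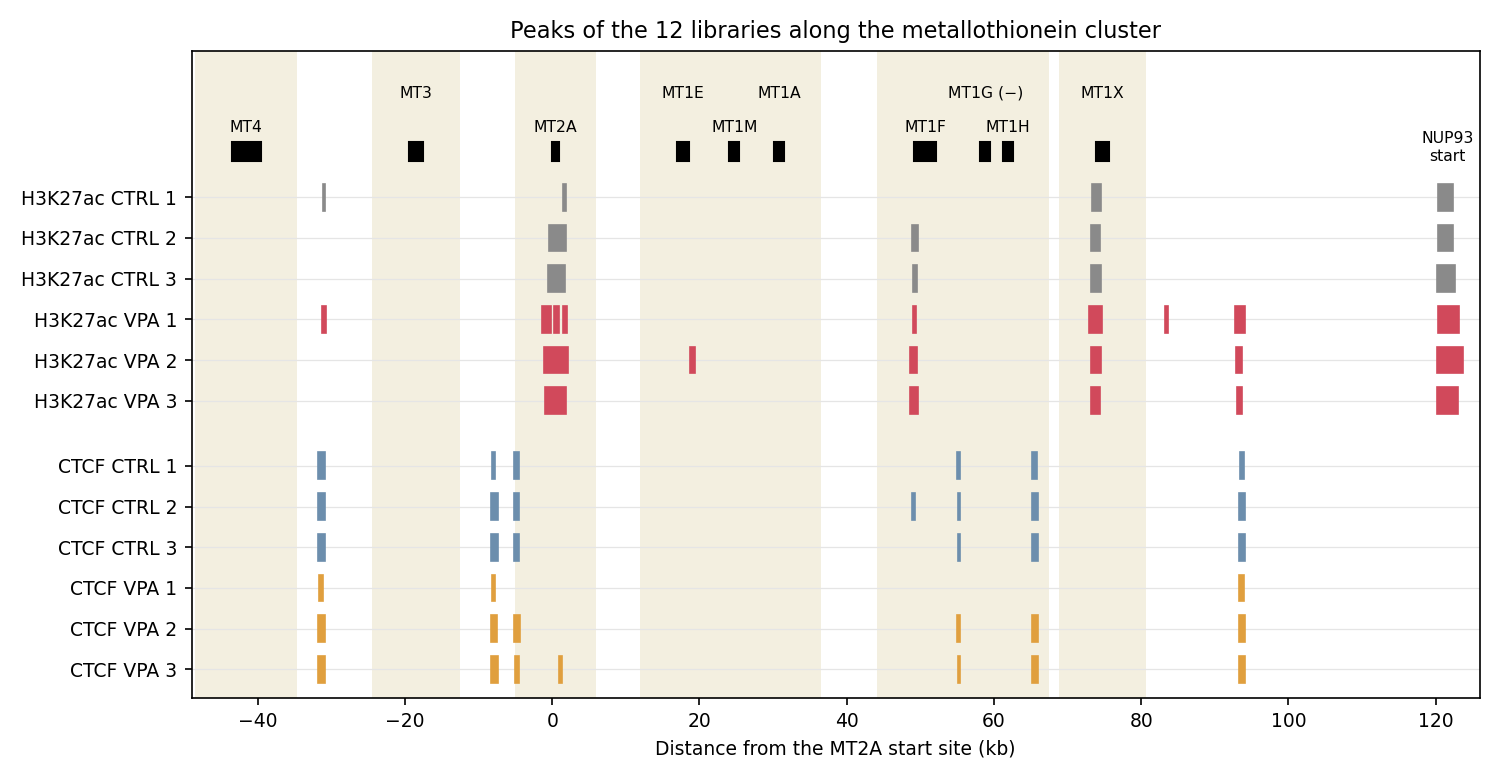
Peaks of the 12 libraries (1 row each) along the cluster, by distance from the MT2A start site in kb. Black boxes are the 10 member genes, shaded bands their windows of 5 kb on either side, and coloured boxes the peaks, which shows H3K27ac at MT2A, MT1F and MT1X and a CTCF VPA replicate 1 row without peaks in the shaded bands.

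H3K27ac was found at 3 of the 10 start sites of the cluster. MT1X had a peak within 1 kb of its start site in 6 of 6 libraries, and MT2A and MT1F in 2 of 3 CTRL and 3 of 3 VPA libraries. The other 7 members, MT4, MT3, MT1E, MT1M, MT1A, MT1G and MT1H, had no such peak in any library. Over all protein-coding genes, 58.1% had an H3K27ac peak at the start site in all 6 libraries, where the cluster had 1 of 10, and 32.9% had none in any library, where the cluster had 7 of 10. The 2 members with 8 cores in the promoter thus fell on different sides, since MT2A was acetylated in 5 libraries and MT1H in 0. These counts are a description of a region whose members share sequence.

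Summits lay at similar places in both treatments at MT1X and MT1F. At MT1X they lay at −309, −249 and −236 bp of the start site in CTRL and at −245, −235 and −298 bp in VPA, in intergenic sequence. At MT1F they lay 42 and 38 bp downstream in CTRL replicates 2 and 3 and 57, 20 and 133 bp downstream in VPA. All lay inside the annotated gene but outside the exons of its canonical transcript. The start site taken for MT1F was the outer end of the annotated gene, and the start of its canonical transcript was not examined. At MT2A, CTRL replicates 2 and 3 had their summits at −233 and −285 bp. VPA replicates 1 and 2 had a summit at −249 and −251 bp, while that of VPA replicate 3 lay 404 bp downstream, in MT2A outside the exons of the canonical transcript. The promoter windows printed above begin 250 bp before the start site, close to these upstream summits.

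MT2A, a widely expressed and metal-inducible member, had the largest acetylated length of the 10 members in 5 of 6 libraries. H3K27ac peaks covered 476, 2349 and 2345 bp of its window in CTRL replicates 1, 2 and 3, and 2547, 3219 and 2852 bp in VPA. All VPA libraries thus lay above all CTRL libraries, as they did for 23.7% of all protein-coding genes. The means were 1723 ± 1080 bp (SD, n = 3) and 2873 ± 336 bp (SD, n = 3), a difference of 1149 bp with an exact permutation p of 0.1 (two-sided), which is the smallest that 3 against 3 libraries allow. The low CTRL value came from replicate 1, whose only peak at MT2A began 1404 bp downstream of the start site, with its summit 1590 bp downstream, within the span of a lncRNA (ENSG00000260823). Without CTRL replicate 1 the difference was 526 bp and without replicate 1 of both treatments 689 bp, with the groups still apart, and with an exact p of 0.2 and 0.333. Within the gene body alone (914 bp), without flanks, the groups overlapped (difference 213 bp, exact permutation p = 1). The peaks of replicates 2 and 3 covered the whole body in both treatments, so only replicate 1 could differ there.

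Compared with CTRL replicates 2 and 3, the added length at MT2A lay at the outer edges. CTRL replicate 1 lacked the stretch at the start site, and its only peak began at 1404 bp. Upstream of the start site, the peak reached −469 and −569 bp in CTRL replicates 2 and 3 and −1430, −1140 and −939 bp in VPA. Downstream it reached 1879, 1879 and 1775 bp in CTRL and 2034, 2078 and 1912 bp in VPA. Both edges were therefore farther out in every VPA library than in every CTRL library. Among the 18407 H3K27ac regions with a peak in all 6 libraries, 6.30% had both edges farther out in this way and 0.0869% had both farther in. In VPA replicate 1 the stretch was broken into 3 peaks, where every other library had 1.

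MT1X, a widely expressed MT1 gene at the far end of the cluster, had 1 peak in each library. It covered 1206, 1187 and 1325 bp in CTRL and 1810, 1406 and 1283 bp in VPA, so the groups overlapped. The means were 1239 ± 74.8 bp and 1500 ± 276 bp (SD, n = 3 each), and the exact permutation p was 0.2. The difference of 260 bp fell to 105 bp without VPA replicate 1 and to 88.5 bp without replicate 1 of both treatments. Its upstream edge lay at −552, −635 and −699 bp in CTRL and at −980, −726 and −720 bp in VPA, that is farther out in all 3 VPA libraries, as the left edge was in 20.1% of those 18407 regions. Its downstream edge overlapped between treatments, at 551 to 653 bp in CTRL and 562 to 829 bp in VPA.

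MT1F had the shortest of the 3 peaks. It covered 0, 801 and 605 bp in CTRL and 364, 955 and 1005 bp in VPA, which overlap (means 469 ± 418 and 775 ± 357 bp, SD, n = 3 each, exact permutation p = 0.5). Replicate 1 held the lowest value of each treatment. Without replicate 1 the VPA libraries lay above the CTRL libraries by 277 bp on average, as they did for 60.5% of all protein-coding genes under this choice, and 2 against 2 libraries cannot give an exact p below 0.333.

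**Figure D2:**
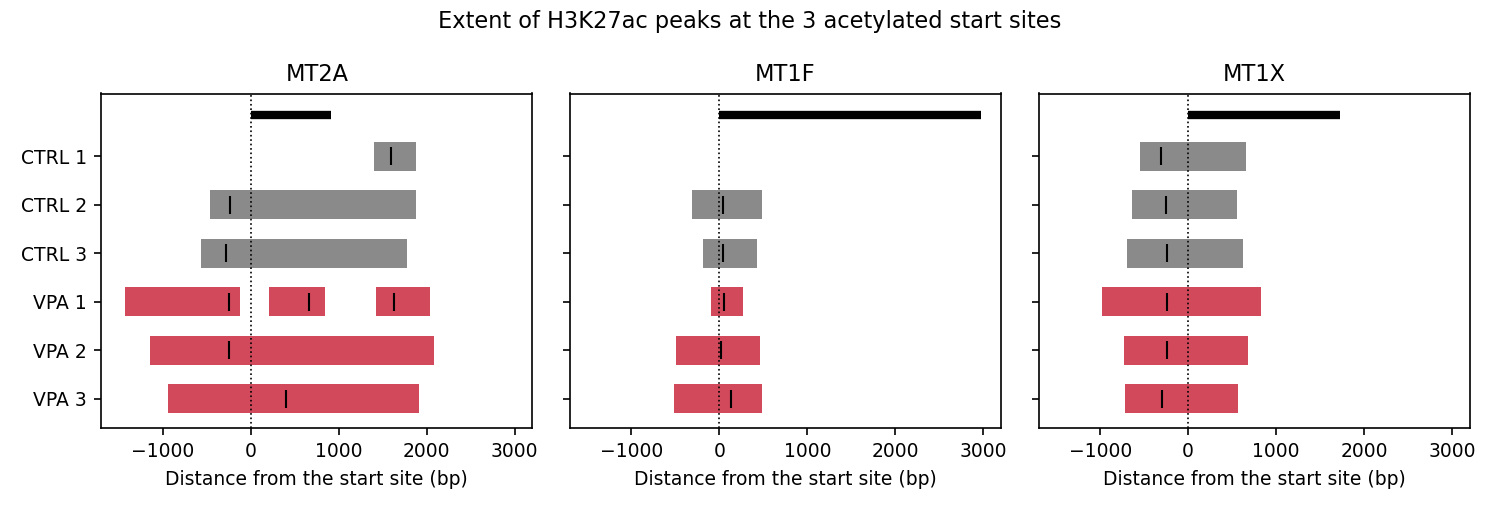
Extent of the H3K27ac peaks (bars) and their summits (black ticks) at MT2A, MT1F and MT1X in each library, by distance from the start site in bp, with the gene body as a black line. At MT2A the 3 VPA libraries reach from between −1430 and −939 bp to between 1912 and 2078 bp, beyond every CTRL library on both sides, and CTRL replicate 1 has only the downstream piece.

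MT1E and MT1M, neighbours at the middle of the cluster, shared a single peak of 773 bp. It was called in VPA replicate 2 alone, 2504 bp downstream of the MT1E start site in intergenic sequence, with a fold of 2.29 over the local background. MT4, MT3, MT1A, MT1G and MT1H had no H3K27ac peak in their windows in any library. In all, MT2A was the only member of 10 whose VPA libraries all exceeded its CTRL libraries in H3K27ac covered length, and 0 of 10 were lower throughout. Over all protein-coding genes, 23.7% were higher in this sense and 0.167% were lower, so the cluster's 1 of 10 was not above the background. When replicate 1 was left out of both treatments, 2 of 10, MT2A and MT1F, were higher and 0 lower, where 60.5% and 1.68% of all genes were.

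The counts and lengths over the whole cluster were as follows. H3K27ac peaks numbered 2, 3 and 3 in untreated cells and 5, 4 and 3 after VPA (exact permutation p = 0.3), and the 5 include the 3 pieces at MT2A in VPA replicate 1. The difference of 1.33 peaks was 0.667 within gene bodies and 0.5 without replicate 1 of both treatments (exact permutation p = 1 for each). The peaks covered 1682, 4337 and 4275 bp in CTRL and 4721, 6353 and 5140 bp in VPA. Each VPA library was above each CTRL library, and the means of 3431 ± 1515 and 5405 ± 848 bp (SD, n = 3 each) gave a ratio of 1.58 with an exact permutation p of 0.1, the smallest possible. Without replicate 1 of both treatments the difference fell from 1973 to 1441 bp. Within gene bodies alone, with all libraries, it was 395 bp (exact permutation p = 0.5). There the MT2A body was fully covered in replicates 2 and 3 of both treatments. The replicate numbers were taken to pair the H3K27ac libraries, which the labels do not state. Across regions, only replicate 1 stood apart, and replicates 2 and 3 could not be matched to each other. With the numbers as blocks the exact sign-flip p was 0.25, again the smallest that 3 pairs allow, with VPA higher in 3 of 3 pairs.

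**Figure D3:**
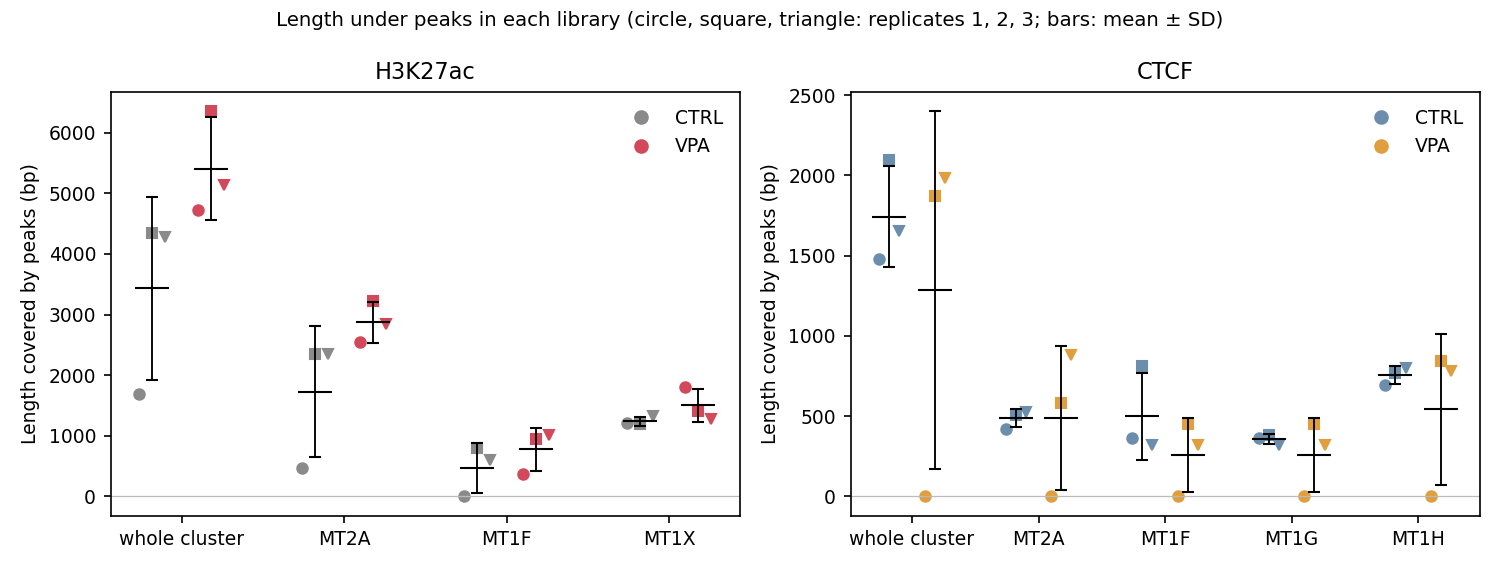
Length under H3K27ac (left) and CTCF peaks (right) in bp for the whole cluster and for the members with a peak in more than 1 library, with a marker per library and bars for the mean ± SD. The H3K27ac groups are apart for the whole cluster and for MT2A, while a CTCF VPA library lies at 0 throughout.

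Peak height was compared as a separate measure. At MT2A, the fold of the highest peak over its local background was 4.74, 5.42 and 7.73 in CTRL and 5.46, 6.29 and 5.41 in VPA. In replicate 1 of both treatments this was the separate peak downstream, in the span of the lncRNA, while the start site peak of VPA replicate 1 had a fold of 2.69 and CTRL replicate 1 had none. In a limma fit over all 18407 H3K27ac regions with a peak in all 6 libraries, the difference was −0.03 on the log2 scale (SE 0.48, adjusted p = 1). At MT1X the fold was 2.57, 7.71 and 6.33 in CTRL and 3.06, 5.72 and 6.97 in VPA, a log2 difference of −0.01 (SE 0.49, limma adjusted p = 1). The treatments thus overlapped at both genes, and at MT1X replicate 1 was the lowest of each treatment. Without replicate 1 of both treatments the log2 difference was −0.15 at each gene (SE 0.33 at MT2A, 0.32 at MT1X, limma adjusted p = 0.809 and 0.813). Across all regions 0 were called higher and 0 lower in VPA by limma at an adjusted p below 0.05 (a background of 0%), and 301 had an unadjusted p below 0.05.

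With the replicate numbers as blocks, limma called 871 of the 18407 regions higher (4.73%) and 2169 lower (11.8%). Neither MT2A (log2 difference −0.03, SE 0.25, adjusted p = 0.942) nor MT1X (log2 difference −0.01, SE 0.24, adjusted p = 0.979) was among them. These p-values do not show that the height stayed the same. MT1F, without a peak in CTRL replicate 1, was fitted where a region was required in at least 2 libraries of each treatment or where that library was left out. Its folds were 5.57 and 5.72 in CTRL replicates 2 and 3 and 2.03, 4.65 and 4.09 in VPA replicates 1, 2 and 3. All VPA values lay below these 2, but the share of all regions apart in this way was not counted. With at least 2 libraries of each treatment limma gave a log2 difference of −0.74 (SE 0.43, adjusted p = 1), where the median of all regions was −0.08. Without replicate 1 of both treatments it was −0.37 (SE 0.32, adjusted p = 0.482).

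Fold divides the signal by the local background, and the 2 parts behaved differently at these genes. At MT1X the summit pileup, that is the number of fragments over the summit, was 101, 91 and 84 in CTRL and 114, 77 and 85 in VPA. The local background beneath it was 38.7 and 36.5 fragments in replicate 1 of CTRL and VPA, but 10.9 to 12.6 in the other 4 libraries. At the MT2A promoter, VPA replicate 1 had a pileup of 97 over a local background of 35.4. The other VPA libraries and CTRL replicates 2 and 3 had pileups of 63 to 72 over local backgrounds of 7.28 to 11.9. MT1F showed the same contrast, with a pileup of 99 over 48.1 in VPA replicate 1 and pileups of 46 to 53 over 8.26 to 10.5 in the libraries of replicates 2 and 3. Taking the pileup over each library's own background coverage in place of the fold, limma gave MT2A a log2 difference of 0.57 (SE 0.26, unadjusted p = 0.0396, adjusted p = 0.117), above the median of −0.28 over all regions, and MT1X −0.06 (SE 0.21, adjusted p = 0.838). That fit called 744 of all regions higher (4.04%) and 2456 lower (13.3%), neither gene among them. In it, CTRL replicate 1 entered MT2A with its downstream peak, whose pileup was 30.

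**Figure D4:**
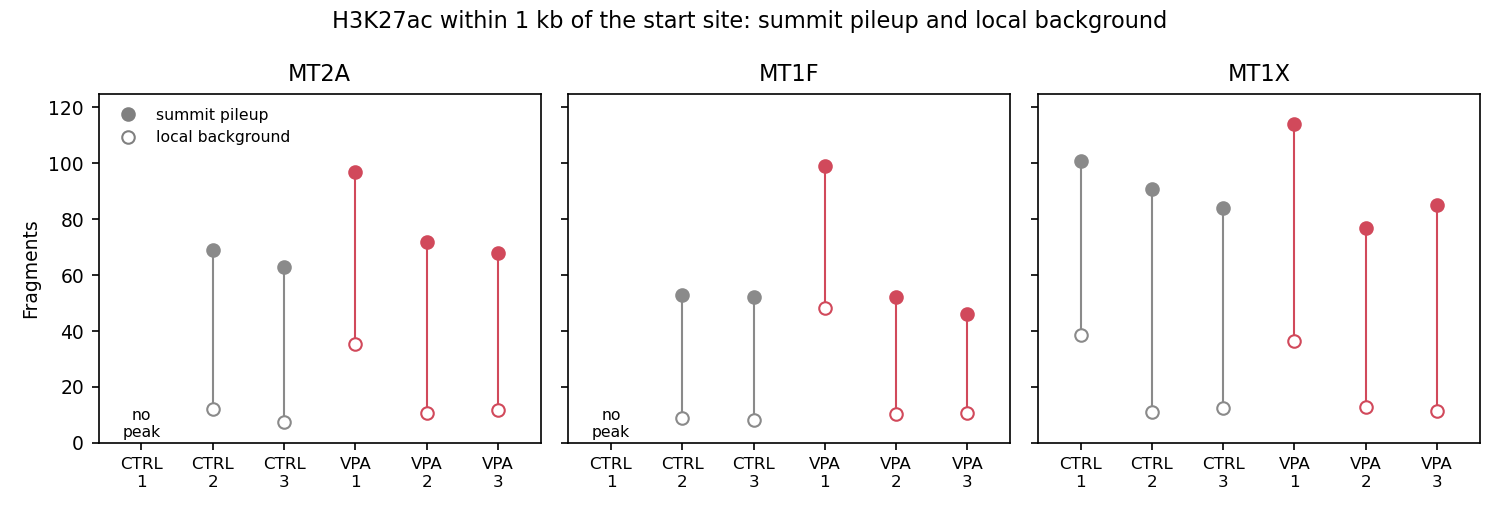
Summit pileup (filled circles) and local background (open circles), in fragments, of the H3K27ac peak within 1 kb of the MT2A, MT1F and MT1X start sites in each library. Replicate 1 libraries have local backgrounds of 35.4 to 48.1 where a peak was called, against 7.28 to 12.6 elsewhere, and CTRL replicate 1 has no start site peak at MT2A and MT1F.

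CTCF sites that recurred in the member windows lay in intergenic sequence away from the start sites. In the member windows CTCF peaks numbered 3, 4 and 3 in CTRL and 0, 3 and 4 in VPA, at 5 different regions. None of the 10 members had a CTCF peak within 1 kb of its start site in more than 1 library. A peak there in all 6 libraries was thus found for 0 of 10, where 24.3% of protein-coding genes had one. No such peak in any library was found for 8 of 10, where the share of protein-coding genes was 58.1%. The summits that recurred ranged over 6 to 47 bp, except between MT1F and MT1G, where they ranged over 271 bp. There were 6 CTCF sites with a peak in at least 5 libraries, 3 of them in member windows and 3 outside. Of these, 5 are shown with 30 bases on either side of the median summit on the plus strand of hg38, because the motif can be read in some and not in others. Capitals mark the core of the CTCF motif, written as CCANNAG followed directly by NNGGC, with at most 1 mismatch, on either strand, or, where that was not found, the shorter AGGNGGC, which was added after the sequences had been seen.
Between MT4 and MT3, chr16:56577190-56577250: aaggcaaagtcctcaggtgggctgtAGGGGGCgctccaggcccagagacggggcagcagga
Upstream of MT2A, outer, chr16:56600580-56600640: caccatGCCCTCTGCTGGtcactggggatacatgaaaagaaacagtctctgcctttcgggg
Upstream of MT2A, inner, chr16:56603720-56603780: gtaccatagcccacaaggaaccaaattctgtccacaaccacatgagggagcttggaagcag
Between MT1F and MT1G, chr16:56663812-56663872: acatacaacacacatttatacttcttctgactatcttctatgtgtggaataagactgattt
Downstream of MT1X, chr16:56702187-56702247: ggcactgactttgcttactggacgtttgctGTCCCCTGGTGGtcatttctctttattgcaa

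The outer site upstream of MT2A held the core without a mismatch and the site beyond MT1X with 1, both on the minus strand, and both lie outside the member windows. The site between MT4 and MT3 held the shorter core. The inner MT2A site and the site between MT1F and MT1G, in member windows, held none of these within 30 bp of the median summit. Their best matches to the longer core had 2 and 3 mismatches. Between MT1F and MT1G the summits ranged over 271 bp, and only that of CTRL replicate 3 lay in the stretch searched. Among all 69985 CTCF regions, 13.6% held the exact core, 43.7% the core with at most 1 mismatch and 26.2% the shorter core, against 0.189%, 3.81% and 4.08% in windows 2 kb away. Sequences without these letters may hold other forms of the motif.

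Downstream of MT1H, 4311 bp past its start site and in intergenic sequence, stood the highest CTCF peak of the member windows. Its folds were 51.7, 44.5 and 26.7 in CTRL and 30.9 and 35.4 in VPA replicates 2 and 3, with no peak in VPA replicate 1. These values overlapped between treatments, and the summits of the 5 libraries lay within 6 bp. It ranked between the 67.6 and 75.7 percentile of its list by q-value.

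The inner site upstream of MT2A lay at −4834 bp of the start site, at the edge of the window. Its folds were 17.0, 24.6 and 20.8 in CTRL and 12.8 and 15.3 in VPA replicates 2 and 3, again with no peak in VPA replicate 1. The pileup over background coverage overlapped between treatments, at 26.3, 50.3 and 50.3 in CTRL and 37.3 and 37.6 in VPA. The limma fit over the 47198 CTCF regions with a peak in at least 2 libraries of each treatment gave a log2 difference of −0.56 (SE 0.50, adjusted p = 1), and without replicate 1 of both treatments it was −0.70 (SE 0.31, unadjusted p = 0.0603, adjusted p = 0.738). Neither passed the test. In the first of these fits the peak downstream of MT1H had a log2 difference of −0.25 (SE 0.66), and that between MT1F and MT1G of −0.05 (SE 0.31), both with an adjusted p of 1.

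The peak between MT1F and MT1G was close to the limit of detection. Its folds were 4.09, 3.29 and 2.65 in CTRL and 3.82 and 2.66 in VPA replicates 2 and 3, and its pileups 17 to 32 fragments, where the lowest called anywhere were 11 or 12. In 4 of the 5 libraries it ranked at the 6.15 percentile of its list or lower, and in the other at 10.7. Its summits ranged over 271 bp. The last CTCF regions of the member windows were found in 1 library each. These were a peak 154 bp upstream of the MT1F start site in CTRL replicate 2, with a fold of 3.93, and a peak 1078 bp downstream of the MT2A start site in VPA replicate 3, with a fold of 4.61, in an exon of the lncRNA ENSG00000260823. Both overlapped the acetylated region of the gene.

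CTCF covered 1481, 2094 and 1654 bp of the member windows in CTRL and 0, 1874 and 1982 bp in VPA (means 1743 ± 316 and 1285 ± 1114 bp, SD, n = 3 each, exact permutation p = 0.8). Without VPA replicate 1 the direction turned, with VPA higher by 185 bp (exact permutation p = 0.5), and without replicate 1 of both treatments by 54 bp (exact permutation p = 1). No member was higher or lower in CTCF covered length throughout, 0 of 10 in each direction, where 1.20% of all protein-coding genes were higher and 1.68% lower. With replicate 1 left out of both treatments, MT2A alone was higher and 0 of 10 lower, where 10.0% and 19.0% of all genes were. Its covered length was 509 and 529 bp in CTRL and 581 and 881 bp in VPA. The 881 bp included a peak of 384 bp found in VPA replicate 3 alone. The rest came from the inner site, which the window edge cuts. The full peaks at that site overlapped between treatments, at 716 and 748 bp in CTRL and 753 and 611 bp in VPA. No CTCF region of the member windows had a peak in all 6 libraries, so none entered the main limma fit, in which 0 of 27794 regions passed in either direction (0%) and 254 had an unadjusted p below 0.05.

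VPA replicate 1 lacked every CTCF site of the member windows, the inner MT2A site and that downstream of MT1H included, although it held 36469 peaks elsewhere. Of all CTCF regions, 7.85% had a peak in the other 5 libraries and none in this one. The 3 sites outside the windows were present in it. Between MT4 and MT3, within BBS2 outside the exons of its canonical transcript, the folds were 329, 62.0 and 62.5 in CTRL and 32.4, 99.4 and 56.7 in VPA. At the outer site, at −7974 bp of the MT2A start, they were 6.01, 31.9 and 40.0 in CTRL and 7.47, 27.2 and 39.7 in VPA. At the site 19747 bp past the MT1X start site they were 27.7, 108 and 88.9 in CTRL and 28.8, 119 and 99.1 in VPA. At the latter sites replicate 1 was the lowest of each treatment, whereas CTRL replicate 1 was the highest of all 6 libraries between MT4 and MT3. The treatments overlapped at all 3 (exact permutation p of 0.4, 1 and 0.7 for the log2 fold).

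**Figure D5:**
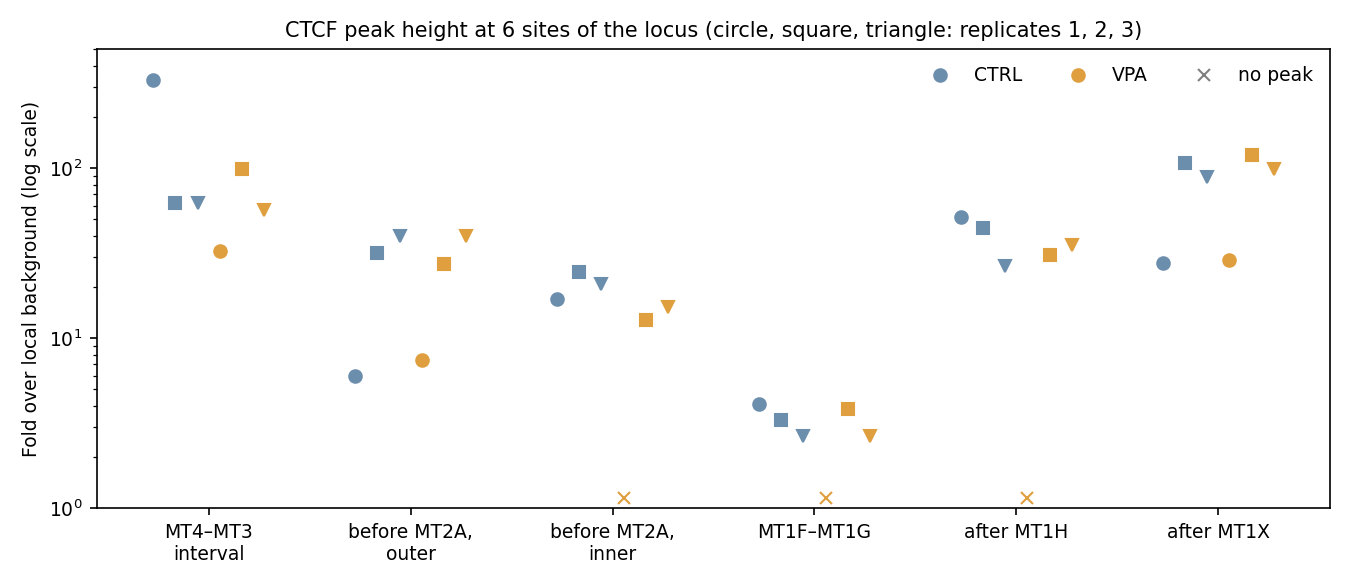
Fold of the CTCF peak over its local background (log scale) at 6 sites in order along the locus, with a marker per library and crosses for libraries without a peak. CTCF VPA replicate 1 has no peak at the 3 sites in member windows, and replicate 1 is lowest of both treatments at the outer MT2A site and after MT1X.

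Acetylation between the member windows and beyond them was also examined. A region at chr16:56701344-56702641, 19554 bp past the MT1X start site and overlapping the CTCF site there, was called in 3 of 3 VPA libraries and in none of the 3 CTRL libraries. Its folds were 4.90, 3.63 and 2.98, and its peaks were 1298, 850 and 657 bp long. Of all 55382 H3K27ac regions, 4.12% were present in this way and 0.139% in the reverse way. It is intergenic, and no member window reaches it. An H3K27ac peak at the CTCF site between MT4 and MT3 was called in replicate 1 of both treatments and in no other library, with folds of 4.11 and 4.48.

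The neighbouring genes were compared in the same way. NUP93, whose start site had a peak in 6 of 6 libraries, had 1978, 2145 and 2419 bp of H3K27ac in its window in CTRL and 3185, 3566 and 3136 bp in VPA (exact permutation p = 0.1, the smallest possible). BBS2 had 1136, 1777 and 1626 bp in CTRL and 2445, 3481 and 2318 bp in VPA (exact permutation p = 0.1). The start site taken for BBS2 was the outer end of its annotated span, chr16:56582667, and had a peak in 0 of 6 libraries. Starts of other BBS2 transcripts were not examined. Both genes were higher in all VPA than in all CTRL libraries, like 23.7% of all genes, and stayed so without replicate 1. At the start region shared by NUP93 and NUP93-DT the fold was 6.33, 21.6 and 21.4 in CTRL and 6.61, 18.0 and 20.4 in VPA, with replicate 1 low in both.

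Other genes of zinc handling were read as a list of 25: MTF1, the exporters SLC30A1 to SLC30A10 and the importers SLC39A1 to SLC39A14. An H3K27ac peak stood at the start site in all 6 libraries for 17 of 25 and in none for 7 of 25, where all protein-coding genes had 58.1% and 32.9%. Covered length was higher in all VPA than in all CTRL libraries for 9 of 25 and lower for 0, where 23.7% of all genes were higher. When replicate 1 was left out, it was higher for 17 and lower for 1, where 60.5% and 1.68% of all genes were. Its difference between treatments had a median of 542 bp over the list and 63.2 bp over the 10 metallothioneins. These medians are not alike in measure, since covered length depends on the length of the window. The metallothionein windows were 10914 to 13885 bp long, and window length was not adjusted for. MTF1 had 4370, 4577 and 4294 bp in CTRL and 4560, 5586 and 6611 bp in VPA, which overlap (exact permutation p = 0.2). SLC30A1, the plasma membrane zinc exporter and itself a target of MTF1, had 2582, 3226 and 3121 bp in CTRL and 3051, 4184 and 3751 bp in VPA, also overlapping (exact permutation p = 0.3). Without replicate 1 the VPA libraries of both genes lay above the CTRL libraries. In the limma fit the log2 difference in fold at the start site was −0.04 (SE 0.72) for MTF1 and −0.01 (SE 0.73) for SLC30A1, both with an adjusted p of 1, and 0 of the list's start site regions passed. CTCF stood at the start sites of MTF1 and SLC30A1 in 6 of 6 libraries and at those of 8 of the 25 genes in all, where 24.3% of all protein-coding genes had one in every library.

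Near-identical sequence within the family could limit where paired reads are placed. Of the 50-base words of the member genes, 0% in MT3 to 12.2% in MT1M occurred elsewhere in the genome, and of the 100-base words at most 1.88%, in MT1E. At the 7 start sites without an H3K27ac peak, the shares within 500 bp ran from 0% to 5.78% for 50-base words, with the highest at MT3 and the next, 4.73%, at MT1M, and were 0% for 100-base words.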

How the data were processed

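The peak lists of 12 ChIP-seq libraries were used, and the 6 input libraries were not used here. Sonicated fragments measured 200 to 600 bp. The authors aligned paired reads to hg38 with Bowtie2 and called peaks in each library with MACS3 (3.0.0a7 in the submitters' processing notes) with a q-value limit of 0.05, so that no replicates were pooled. The deposited lists give each peak's interval and summit, its fold enrichment (a ratio to the local background) and the authors' −log10 p-value and −log10 q-value. The deposited score follows from the q-value and was not used. The study's own test of differential peaks needs read counts, which were not used here.

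From fold and −log10 p-value, the summit pileup and local background were recovered in 100% of peaks within 1%. The lowest local background per list served as relative depth. Whether the local background came from an input or from the ChIP library itself was not examined. For each antibody, peaks sharing 1 bp were merged into regions. Covered length and peak number were compared by two-sided exact permutation tests over libraries. The log2 fold of each library's highest peak in a region was compared by limma 3.58.1 (R 4.3.3, moderated with a trend, Benjamini-Hochberg adjustment over all regions with a peak in all 6 libraries) and was tested on simulated data. Same-numbered H3K27ac libraries deviated together from their group means (r = 0.865, 0.585 and 0.591 across regions), so the numbers were taken to pair them, although CTRL 2 with VPA 3 (0.607) and CTRL 3 with VPA 2 (0.554) were similarly close. Shares and zinc list counts without replicate 1 were added after seeing the data. Python 3.11.15, numpy 2.4.6, pandas 2.3.3, scipy 1.17.1 and matplotlib 3.10.9 were used.

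Alternatives were a −log10 q-value of at least 3, lists of equal length, gene bodies without flanks, at least 50% of the peak inside the window, other height measures, each library left out, replicate 1 left out of both treatments and replicate blocks. All 10 members were named, together with BBS2 and NUP93 as neighbours and, of the zinc list, MTF1 and SLC30A1 plus up to 3 genes that passed limma, of which there were 0. Regions in at least 4 of 6 libraries were given per library. Members and lists were chosen with earlier results of these data known. The sequence of the CTCF site downstream of MT1H is not reported here.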

Additional observations from a re-analysis of the deposited data

How the results depend on the processing

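In H3K27ac, peak number and covered length at the cluster kept their direction under every alternative run. Their side of the 0.05 threshold could not change, since no exact test with so few libraries can pass it. The log2 difference in height, near 0 at MT2A and MT1X, changed sign under some, between −0.18 and 0.57 at MT2A and between −0.49 and 0.34 at MT1X. Leaving out each library in turn gave differences of 0.833 to 1.83 peaks and of 1099 to 2426 bp. The number of members higher in covered length was 1 under a −log10 q-value of at least 3, equal list lengths and the 50% overlap, 0 within gene bodies, 2 without replicate 1 of both treatments, and 1 to 2 with each library left out. The added member was MT1F without VPA replicate 1 or replicate 1 of both treatments and MT1X without CTRL replicate 3 or VPA replicate 3. Of these settings, the share of all protein-coding genes was counted only without replicate 1 of both treatments (60.5%). The other counts therefore have no background beside them. The MT2A difference of 1149 bp shrank to 213 bp within gene bodies. That body was fully covered in replicates 2 and 3 of both treatments, so only replicate 1 could differ there. In CTCF, the difference in peaks (−1) became 0.167 and that in covered length (−458 bp) became 185 bp without VPA replicate 1, and 54 bp without replicate 1 of both treatments. With each library left out they ran from −1.83 to 0.167 peaks and from −806 to 185 bp. The number of higher members rose from 0 to 1, MT2A, without VPA replicate 1 or replicate 1 of both treatments. Over single libraries left out it was 0 to 1. The share of all genes was 10.0% without replicate 1 of both treatments and was not counted without VPA replicate 1 alone. The rise at MT2A rested on a site cut by the window edge and, in VPA replicate 3, on a peak found in that library alone. Fewer samples are not the only change in these settings, since replicate 1, which stood apart in local background, was among the libraries left out. Calls of cluster regions by limma stayed at 0 throughout, while over all H3K27ac regions 0 called became 744 higher and 2456 lower with pileup in place of fold, 635 and 1402 without replicate 1 of both treatments and 871 and 2169 with the replicate block. The cause was not tested. Same-numbered CTCF libraries deviated with r = 0.340, −0.045 and 0.477, so their numbers were not taken to pair them, and with the replicate block the CTCF differences of −1 peak and −458 bp had an exact p of 0.75 each and the H3K27ac differences of 1.33 peaks and 1973 bp an exact p of 0.5 and 0.25. No exact test of 3 against 3 libraries can pass 0.05, and CTCF height at the cluster had no value where VPA replicate 1 was required. Peaks near 11 or 12 fragments lie at the limit of what was called, so a missing peak is not a missing mark.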
